A study of Caenorhabditis elegans with 4 samples.

Results

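The 10 genes described here encode P granule proteins and factors of germ cell fate in Caenorhabditis elegans. They are pgl-1, pgl-3, glh-1, glh-2, glh-3, glh-4, deps-1, nos-2, meg-1 and xnd-1, and they were taken by gene name from a table of raw read counts for 20392 genes. All 10 were found in the table. The rule used the gene name and no threshold on a value, though the list was drawn up with earlier results of these data known.

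P granules are RNA-protein condensates that lie at the nuclear envelope of worm germ cells and pass to the germ lineage through each early embryonic division. PGL-1 and PGL-3 are related scaffold proteins that form the body of the granule, and the GLH proteins are DEAD-box RNA helicases related to Vasa of flies. In a newly hatched larva the germ line is the pair of primordial germ cells, which stay arrested until the animal feeds, so most RNA of a whole larva is somatic.

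Total RNA came from whole first-stage (L1) larvae of 2 genotypes with 2 libraries each. The wild type was the Bristol strain N2 (GW1 / N2). The mutant strain GW1125 carries lsm-8(xe17), an allele on chromosome IV marked with a red transgene (myo2p::mcherry with the unc54 3'UTR), over the balancer nT1[qIs51](IV;V), whose marker is green. In both genotypes, eggs were left for 16 h to hatch in buffer, larvae of L1 size without a green pharynx were sorted, and these were fed for 2.5 h before RNA extraction. The label lsm-8-/- thus rests on the missing balancer marker. LSM-8 is the subunit that distinguishes the nuclear LSM2-8 ring from the cytoplasmic LSM1-7 ring, and the comparison asks which transcripts differ when it is mutated. Whether libraries of the same genotype came from separate cultures is not stated, so p-values measure the spread between these libraries, which may be technical.

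Library totals ran from 50755251 to 101230177 counts, with the mutant libraries 1.83 times deeper on average. Levels are given as CPM, which put every library on a common size after TMM scaling. The targeted gene lsm-8 stood at 15.4 and 15.9 CPM in wild type and at 3.25 and 3.73 CPM in the mutant (log2 fold change -2.17, SE 0.11, n = 2 and 2, edgeR adjusted p = 3.85e-11), so both mutant libraries carried the label's direction. Across the transcriptome 4737 of 16771 tested genes were called at an edgeR adjusted p under 0.05, which is 28.2% (13.5% higher and 14.8% lower in the mutant). Scaled by library totals only, 60.5% of the calls were higher, against 47.7% with TMM.

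Called differences among the 10 genes were few, and so small a set cannot show a shortage against all tested genes. Of the 9 that passed the filter on low counts, 1 was called lower (pgl-3), against 14.8% of all tested genes, and 0 were called higher, against 13.5%. The median log2 fold change of these 9 was -0.04, beside -0.007 for all tested genes. At an unadjusted p under 0.05, 2 were lower (pgl-1 and pgl-3) and 0 higher. At least 28.2% of all tested genes passed that threshold too, since an adjusted p is never below the unadjusted one. DESeq2 and limma on the deposited log2 values each called 0 in either direction. Among the 6170 tested genes with mean levels from 3.29 to 35.3 CPM, the range of the 8 better-measured genes, 33.4% were called. The summed level of the 10 genes was 117.8 and 112.0 CPM in wild type against 110.6 and 111.7 CPM in the mutant. In RNA of whole larvae, fewer germ cells and less RNA per germ cell cannot be told apart, and neither can germ cell RNA and any somatic RNA of the same gene.

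**Figure D1:**
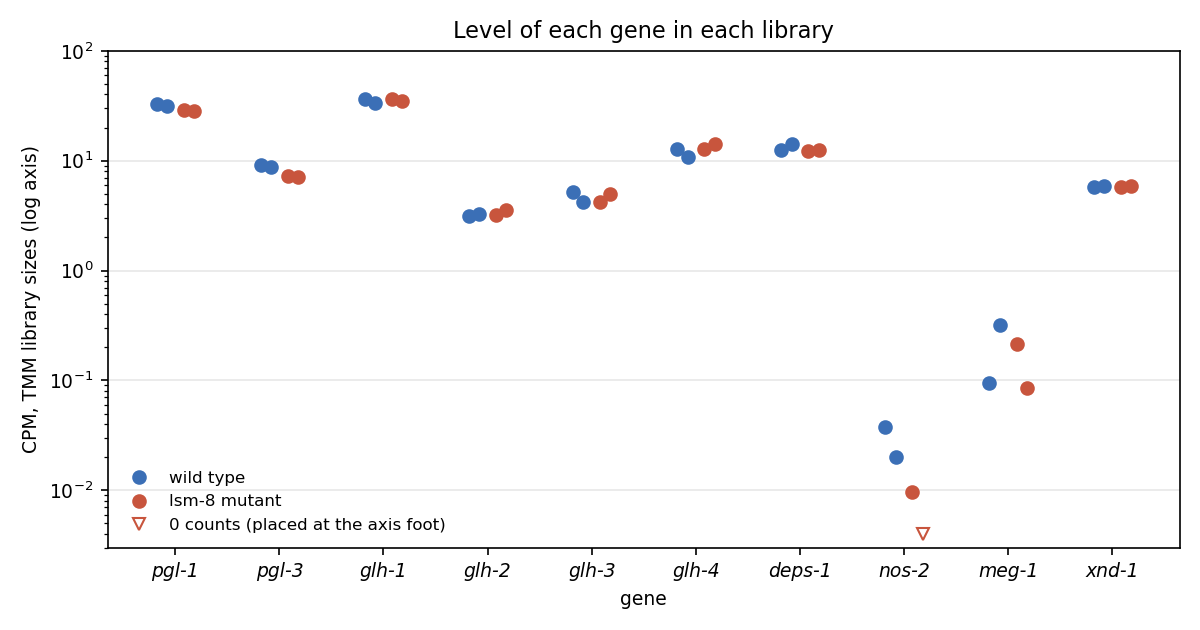
CPM of each gene (log axis) in the 2 wild-type libraries (blue) and the 2 lsm-8 mutant libraries (red), 1 point per library. Levels run from 36.4 CPM for glh-1 to 0 counts for nos-2 in mutant replicate 2, and the genotypes differ far less than the genes do.

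The PGL scaffold genes were the only members with an unadjusted p under 0.05, both lower in the mutant. With at least 28.2% of all tested genes also under that threshold, it does not set the PGL genes apart. Levels of pgl-3 (WBGene00003994, chromosome V) were 9.12 and 8.69 CPM in wild type against 7.27 and 7.06 CPM in the mutant, from 435 to 745 counts. Both mutant libraries lay below both wild-type libraries, and the gene fell to 0.804 of its wild-type level (log2 fold change -0.31, SE 0.10, 95% interval -0.53 to -0.10, edgeR adjusted p = 0.0278). The adjusted p was over 0.05 when wild type replicate 1 (0.108), mutant replicate 1 (0.0604) or mutant replicate 2 (0.103) was left out, with library totals (0.0618), with the replicate number as a block (0.0570), with DESeq2 (0.0684) and with limma on the deposited log2 values (0.0632). The log2 fold change itself stayed between -0.36 and -0.26 over all alternatives.

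Levels of pgl-1 (WBGene00003992, chromosome IV) were 32.9 and 31.1 CPM in wild type against 28.7 and 28.5 CPM in the mutant, from 1558 to 2942 counts. The genotypes did not overlap, but the difference missed the threshold (log2 fold change -0.16, SE 0.07, 95% interval -0.31 to -0.02, edgeR adjusted p = 0.0899). It passed only with a correction for gene length (log2 fold change -0.19, adjusted p = 0.0406). On chromosome IV, which holds pgl-1, the median log2 fold change of 2658 tested genes was 0.09, with 21.8% higher and 9.07% lower. On chromosome V, which holds pgl-3, it was 0.01 over 3802 genes. The part of the chromosome in these values was not tested.

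The 4 GLH genes lie on chromosome I, where 2430 tested genes had a median log2 fold change of -0.05, and none of the 4 was called. GLH-1 is the main GLH helicase and anchors P granules at the nuclear envelope. Levels of glh-1 (WBGene00001598) were 36.3 and 33.4 CPM in wild type and 36.4 and 35.1 CPM in the mutant. The genotypes overlapped, and the log2 fold change was 0.04 (SE 0.07, 95% interval -0.11 to 0.18, edgeR adjusted p = 0.738). With counts from 1669 to 3736, it is the best counted of the 10 genes.

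The helicase gene glh-4 (WBGene00001601), which acts partly redundantly with glh-1 in fertility, stood at 12.8 and 10.9 CPM in wild type and at 12.7 and 14.03 CPM in the mutant. Wild type replicate 1 lay between the mutant libraries. Its log2 fold change of 0.17 (SE 0.10, 95% interval -0.03 to 0.38, edgeR adjusted p = 0.210) was the highest of the 9. Without wild type replicate 1 it was called higher (0.30, adjusted p = 0.0436), and without wild type replicate 2 it was 0.06 (adjusted p = 0.781), so the call depends on which wild-type library is kept.

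Levels of glh-2 (WBGene00001599), a close relative of glh-1, were 3.12 and 3.30 CPM in wild type and 3.18 and 3.58 CPM in the mutant (log2 fold change 0.07, SE 0.15, 95% interval -0.23 to 0.38, edgeR adjusted p = 0.757). Levels of glh-3 (WBGene00001600) were 5.20 and 4.18 CPM in wild type and 4.18 and 4.95 CPM in the mutant (log2 fold change -0.04, SE 0.14, 95% interval -0.34 to 0.25, edgeR adjusted p = 0.861). Both genes overlapped between genotypes. The GLH genes are related in sequence, and the sources used here do not say how reads shared by them were assigned.

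DEPS-1 is a P granule protein that promotes PGL-1 assembly and the level of glh-1 RNA in the germ line. The gene deps-1 (WBGene00022034, chromosome I) stood at 12.4 and 14.3 CPM in wild type and at 12.2 and 12.4 CPM in the mutant. The lower wild-type library (12.448 CPM) and the higher mutant library (12.447 CPM) were nearly equal, and the log2 fold change was -0.12 (SE 0.09, 95% interval -0.32 to 0.08, edgeR adjusted p = 0.378). With pgl-1 and pgl-3 it made 3 of 9 tested genes whose mutant values all lay below the wild-type values, against 31.9% of all tested genes, and 0 of 9 had all mutant values above, against 30.9%. In either direction, 62.8% of tested genes had values that did not overlap.

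Germ cell fate factors ranged from steady to barely detected. XND-1 is a chromatin-associated protein that sets crossover placement on the X chromosome and acts beside NOS-2 in primordial germ cells. Its gene xnd-1 (WBGene00001514, chromosome III) stood at 5.76 and 5.84 CPM in wild type and at 5.77 and 5.84 CPM in the mutant, from 292 to 592 counts. The values of the genotypes interleave, with a log2 fold change of 0.002 (SE 0.12, 95% interval -0.24 to 0.24, edgeR adjusted p = 0.993).

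The genes meg-1 and nos-2 were near or at the limit of detection. MEG-1 is a disordered protein of embryonic P granules, and meg-1 (WBGene00010492, chromosome X) had 5 and 16 counts in wild type and 22 and 8 in the mutant. These are 0.0939 and 0.320 CPM against 0.215 and 0.0862 CPM. The libraries of 1 genotype differed as much as the genotypes did, and the log2 fold change of -0.42 had a wide error (SE 0.64, 95% interval -1.76 to 0.91, edgeR adjusted p = 0.678). Over the alternatives it ran from -1.23 to 0.68, so no direction can be read for meg-1 at this depth.

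NOS-2 is a Nanos-family RNA-binding protein that primordial germ cells need together with NOS-1, and its RNA is supplied by the mother. The gene nos-2 (WBGene00003784, chromosome II) had 2 and 1 counts in wild type and 1 and 0 in the mutant, too few to be tested. The exact Poisson upper limits (two-sided 95%) on these counts were 0.136 and 0.111 CPM for wild type. In the mutant they were 0.0543 CPM for replicate 1 and 0.0398 CPM for replicate 2, which had the count of 0. These limits cover counting error only. All 4 counts lie at or under 3, so no fold is given, and the name of nos-2 as a gene of the L1 germ cells is not borne out by detected RNA here.

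**Figure D2:**
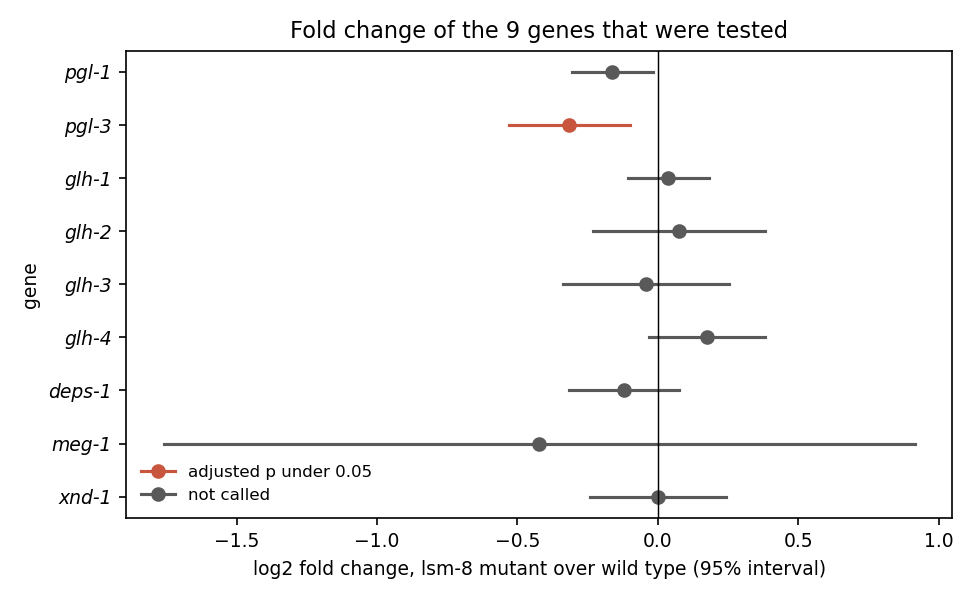
Log2 fold change (lsm-8 mutant over wild type) of the 9 tested genes, with 95% intervals from the edgeR fit, red for the gene called at an adjusted p under 0.05. The interval of pgl-3 (-0.53 to -0.10) lies below 0, that of pgl-1 ends at -0.02 without a call after adjustment, and meg-1 has by far the widest interval.

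**Figure D3:**
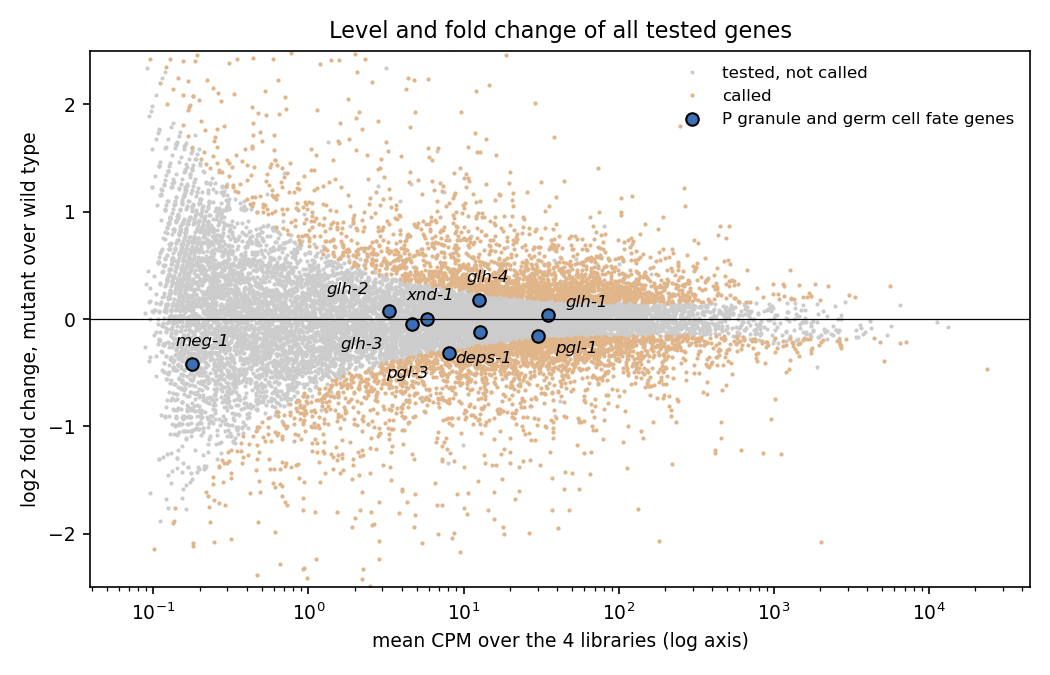
Mean CPM over the 4 libraries (log axis) against log2 fold change for the 16771 tested genes, with called genes in tan and the 9 tested P granule and germ cell fate genes in blue. All but pgl-3 lie among uncalled genes, and 42 genes beyond 2.5 on the vertical axis in either direction are not drawn.

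Levels were compared between genes per kilobase of the width deposited for each gene, which ran from 1222 bases (nos-2) to 3832 bases (glh-4). In wild type, glh-1 had 13.6 ± 0.826 CPM per kilobase (SD, n = 2) and pgl-1 12.8 ± 0.485, and their libraries overlapped. Then came deps-1 at 6.56 ± 0.646, pgl-3 at 3.87 ± 0.132, glh-4 at 3.09 ± 0.360, xnd-1 at 2.51 ± 0.0221, glh-3 at 1.88 ± 0.289 and glh-2 at 1.03 ± 0.0410. In that order glh-1 and pgl-1 were the only neighbours whose wild-type values overlapped among these 8 genes. Per kilobase, glh-1 was higher than 62.9% of tested genes in wild type, pgl-3 than 40.9% and glh-2 than 25.4%. Together pgl-1 and glh-1 made 57.02% to 58.9% of the summed CPM of the 10 genes in each library.

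The order in the mutant differed in 1 place. There glh-4 (3.49 ± 0.246 CPM per kilobase) stood above pgl-3 (3.11 ± 0.0636), with no overlap, while in wild type pgl-3 stood above glh-4, also with no overlap. The GLH genes kept a graded order in both genotypes, with glh-1 highest, then glh-4, glh-3 and glh-2. The level of glh-4 per kilobase was 0.235 and 0.217 of that of glh-1 in wild type and 0.233 and 0.267 in the mutant.

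Ratios within a library do not depend on library scaling. Per kilobase, pgl-1 was 0.926 and 0.956 times glh-1 in the wild-type libraries and 0.806 and 0.832 times in the mutant libraries. The genotypes did not overlap in this ratio. The level of pgl-3 was 0.302 and 0.303 times that of pgl-1 in wild type and 0.275 and 0.269 times in the mutant, again without overlap. These ratios were chosen after the values were seen, and an exact permutation test of 2 against 2 libraries cannot give a two-sided p below 0.333.

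The members varied in gene structure. In the WBcel235 annotation all 10 are protein-coding, 5 lie on chromosome I, and 7 have no exon that overlaps an exon of another gene. The longest predicted proteins were those of glh-4 (1156 residues), glh-2 (974), pgl-1 (771), glh-1 (763) and glh-3 (720), and NOS-2 was the shortest at 259. Exon numbers ran from 5 for nos-2 to 12 for the longer transcript of deps-1. The genes xnd-1, deps-1 and nos-2 each overlap an exon of a gene on the other strand (C05D2.8, Y65B4BL.7 and him-14). The library kit keeps strand, but no source used here says whether the counting did, and reads of these overlaps may not be told apart. Most members are long, with a median width of 2500 bases over the 9 that were tested. Tested genes with a mean of 5 CPM or more were sorted by width into 5 equal bins. Their median log2 fold change was -0.11 in the shortest bin and 0.06 in the longest, which began at 2537 bases. The widths of pgl-1 (2500 bases) and pgl-3 (2300 bases) fell in the bin from 1768 to 2535 bases, with a median of 0.007. Under the length correction, which removes a trend fitted over many genes, pgl-3 had -0.34 and pgl-1 -0.19. The part of gene length in the values of the PGL genes was not tested.

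**Figure D4:**
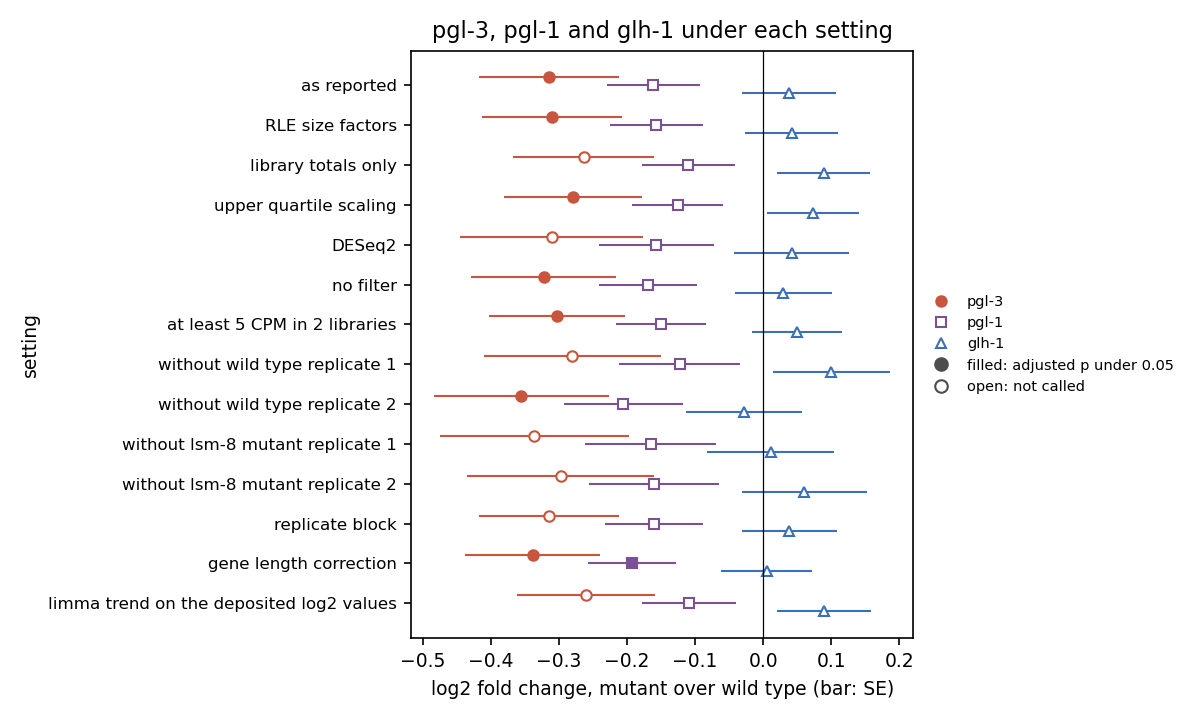
Log2 fold change with its SE for pgl-3 (circles), pgl-1 (squares) and glh-1 (triangles) as reported and under 13 alternatives, filled where the adjusted p was under 0.05. Values of pgl-3 stay from -0.36 to -0.26 and those of pgl-1 from -0.21 to -0.11, while their calls change.

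Among other germ granule factors, meg-3 had a larger log2 fold change in size than any of the 9 tested genes described here. The wide interval of meg-1 (-1.76 to 0.91) spans the value of meg-3. Of 22 tested genes of this list, 2 rose and 2 fell (18.2% called), with a median log2 fold change of 0.04. The highest value of the list, 0.88, was that of a gene not called. The largest fall was that of meg-3, which encodes a disordered protein that with MEG-4 drives assembly of embryonic P granules. It stood at 4.94 and 5.38 CPM in wild type and at 2.66 and 3.16 CPM in the mutant (log2 fold change -0.83, SE 0.14, edgeR adjusted p = 0.000185), and it was called lower in every alternative that tested it. The DEAD-box helicase gene cgh-1 rose from 52.0 and 56.6 CPM to 75.9 and 63.7 CPM (0.36, SE 0.08, adjusted p = 0.00191), also in every alternative. The gene epg-2, whose product targets PGL proteins for autophagy in somatic cells of embryos, fell by 0.20 on the log2 scale (adjusted p = 0.0313, up to 0.323 over the alternatives), and the Tudor-domain factor gene ekl-1 rose by 0.20 (adjusted p = 0.0302, up to 0.178). The call of epg-2 ended with library totals, upper quartile scaling, DESeq2, the replicate block and limma, and without wild type replicate 1 and also without mutant replicate 1. That of ekl-1 ended with the replicate block and without any single library except wild type replicate 2. For the third PGL gene, pgl-2, the difference was -0.22 on the log2 scale (SE 0.12, adjusted p = 0.180). This gene was singled out after its value was seen.

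Factors that place P granules and maternal determinants in the early embryo were called in 5 of 18 genes, 4 higher and 1 lower (27.8%), with a median log2 fold change of 0.11. The kinase gene par-4 rose from 35.9 and 36.3 CPM to 46.9 and 53.2 CPM (0.47, SE 0.07, edgeR adjusted p = 4.35e-05). The kinase gene mbk-2, on chromosome IV, rose from 108.5 and 110.5 CPM to 151.8 and 146.5 CPM (0.45, SE 0.06, adjusted p = 7.10e-06). Both held in every alternative. The atypical protein kinase C gene pkc-3 fell by 0.19 on the log2 scale (adjusted p = 0.0267), a call lost with library totals, upper quartile scaling, the replicate block and limma, and without any single library except wild type replicate 2 (up to 0.223). Many genes of this list also act in somatic cells.

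Among translational regulators of germ cells, 6 of 24 rose and 2 fell, with a median log2 fold change of 0.004. That is 33.3% called, against 28.2% of all tested genes. Here too, germ cell RNA and somatic RNA of the same gene cannot be told apart. The largest rises were those of the Tob-family gene fog-3 and the CPEB-family gene fog-1, which act together in choosing sperm fate. Levels of fog-3 went from 0.507 and 0.740 CPM to 1.44 and 1.16 CPM (log2 fold change 1.07, SE 0.27, edgeR adjusted p = 0.00509), and those of fog-1 from 5.48 and 4.58 CPM to 7.44 and 6.70 CPM (0.49, SE 0.12, adjusted p = 0.00561). Both were called in every alternative that tested them. The Nanos gene nos-1 fell from 2.23 and 1.90 CPM to 1.28 and 1.30 CPM (-0.68, SE 0.19, adjusted p = 0.0126), a call lost with DESeq2 and without wild type replicate 1 (up to 0.0854). The gene lst-1, which acts in germline stem cells, fell by 0.32 on the log2 scale (adjusted p = 0.0217), a call that ended with the replicate block, without wild type replicate 2 and also without mutant replicate 2 (up to 0.173).

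Chromatin factors of germ cells moved in both directions, with 3 of 15 higher and 3 lower and a median log2 fold change of -0.02. That is 40% called, against 28.2% of all tested genes, and so small a list cannot show an excess. In RNA of whole larvae, germ cell RNA and somatic RNA of these genes cannot be told apart. The linker histone variant gene hil-3 fell by 0.39 on the log2 scale (SE 0.07, edgeR adjusted p = 0.000278) in every alternative. The gene mes-3, which encodes a subunit of the worm PRC2-like complex, fell by 0.24 (SE 0.07, adjusted p = 0.0114), except without mutant replicate 1 (0.167). The H3K36 methyltransferase gene mes-4 rose by 0.23 (adjusted p = 0.0225), a call that ended with the replicate block, with the length correction, without wild type replicate 2 and also without mutant replicate 1 (up to 0.172), and the H3K4 demethylase gene spr-5 by 0.22 (adjusted p = 0.0123), lost if wild type replicate 2 or mutant replicate 2 was left out (up to 0.0783).

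Genes of later germline development were measured at low levels and mostly not called. Of 30 meiosis genes tested, 2 rose and 2 fell (13.3%), with a median log2 fold change of 0.007. The crossover factor gene him-5 fell from 13.2 and 12.99 CPM to 8.78 and 8.82 CPM (-0.58, SE 0.09, edgeR adjusted p = 9.95e-05) in every alternative. The synaptonemal complex gene syp-2 fell by 0.55, and the kinase gene chk-2 and the AAA ATPase gene pch-2 rose by 0.55 and 0.35 (adjusted p = 0.0222, 0.0300 and 0.0214). Each of these 3 calls was lost with the replicate block and if wild type replicate 2 or mutant replicate 2 was left out (up to 0.163, 0.284 and 0.205), and those of syp-2 and chk-2 also with DESeq2. Summed over the list, meiosis genes stood at 122.6 and 116.8 CPM in wild type and at 114.4 and 120.5 CPM in the mutant.

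Markers of adult germ cells and yolk are given because older animals or embryos among the larvae could bring such RNA. Whether any did was not tested. Of the 40 sperm genes in the table, 22 had at most 3 counts in every library and 16 had none at all, all of them genes of major sperm proteins or their relatives. The summed level of the 40 genes was 48.9 and 50.7 CPM in wild type and 49.6 and 50.9 CPM in the mutant. Much of it came from 1 gene, spe-15, with 16.4 and 16.1 CPM in wild type and 20.6 and 22.2 CPM in the mutant. Of 13 tested, 1 rose and 2 fell (23.1%), with a median log2 fold change of -0.08. The presenilin-family gene spe-4 fell from 3.19 and 3.50 CPM to 1.02 and 0.916 CPM (-1.78, SE 0.18, edgeR adjusted p = 5.30e-07), and spe-9, a sperm surface protein gene, from 1.76 and 1.98 CPM to 0.712 and 0.668 CPM (-1.44, SE 0.22, adjusted p = 7.70e-05). The myosin VI gene spe-15 rose by 0.39 (SE 0.08, adjusted p = 0.000989). These 3 calls held in every alternative that tested the genes.

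Of 13 oocyte and eggshell genes tested, 1 rose (7.69%), the RNA-binding protein gene lin-41, which also acts in somatic cells of larvae (log2 fold change 0.30, SE 0.06, edgeR adjusted p = 0.00134). A gene not called had the highest log2 fold change of that list, 1.89. With limma on the deposited log2 values, 2 genes of that list were called higher. The median of that list was -0.07, and its summed level was 172.3 and 180.6 CPM in wild type against 210.6 and 196.9 CPM in the mutant, most of it lin-41. Yolk protein genes, made by the adult intestine, summed to 2.18 and 1.98 CPM in wild type and to 3.25 and 3.17 CPM in the mutant. Of 3 tested, vit-2 rose by 1.32 on the log2 scale (SE 0.31, edgeR adjusted p = 0.00310) and vit-6 by 0.86 (SE 0.23, adjusted p = 0.00998). Counts were low, with 26 and 15 in wild type and 108 and 86 in the mutant for vit-2. For vit-6 they were 41 and 37 in wild type and 139 and 128 in the mutant. The third tested yolk gene had a log2 fold change of -0.34 and was not called. The part of such RNA in the values of the P granule genes was not tested.

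The synMuv B proteins and their partners keep P granule genes silent in somatic cells. Of 17 genes of this list, 2 rose and 2 fell (23.5%), with a median log2 fold change of -0.07. The Rb-family gene lin-35 fell from 84.9 and 77.01 CPM to 59.4 and 66.1 CPM (-0.37, SE 0.07, edgeR adjusted p = 0.000411), and the MBT-repeat gene lin-61 from 45.4 and 43.9 CPM to 34.3 and 35.002 CPM (-0.37, SE 0.06, adjusted p = 0.000250). The gene lin-65, whose product acts with MET-2 in H3K9 methylation, rose by 0.32 (SE 0.06, adjusted p = 0.000672). These 3 calls held in every alternative. The E2F gene efl-1 rose by 0.28 (adjusted p = 0.0149), a call that ended without wild type replicate 2 and also without mutant replicate 2 (up to 0.129).

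Calls among markers of gonad and somatic tissues were of rises, with 13.5% of all tested genes called higher. Among gonad development genes, 2 of 8 rose, gon-1, which encodes an ADAMTS protease and lies on chromosome IV (log2 fold change 0.66, SE 0.06, edgeR adjusted p = 4.21e-08), and tra-1 (0.24, adjusted p = 0.0134, up to 0.222 over the alternatives and lost under the length correction, under the replicate block and without mutant replicate 1). Of 8 body wall muscle markers 5 rose, and their summed level went from 11598 and 11483 CPM to 13533 and 14270 CPM. The muscle list holds unc-54, named here only because the mutant's transgene carries the unc54 3'UTR. How reads of that transgene were counted is not stated, and their part in the muscle values was not tested. Pharynx markers rose in 3 of 6 genes, and intestine, neuron and epidermis markers each in 3 of 8. Over the alternatives these counts went down to 3 in body wall muscle, 1 in the pharynx, 0 in neurons and 2 each in intestine and epidermis. Median log2 fold changes were 0.25 in body wall muscle, 0.15 in the pharynx, 0.08 in the intestine, 0.02 in neurons and 0.24 in the epidermis, where single markers went down to -0.42. The GATA factor gene elt-2, which specifies intestine, rose by 1.56 (SE 0.10, adjusted p = 1.05e-09) and the muscle myosin gene myo-3 by 0.46 (SE 0.06, adjusted p = 9.90e-06), both in every alternative. The part of these somatic levels in the values of pgl-1 and pgl-3 was not tested.

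**Figure D5:**
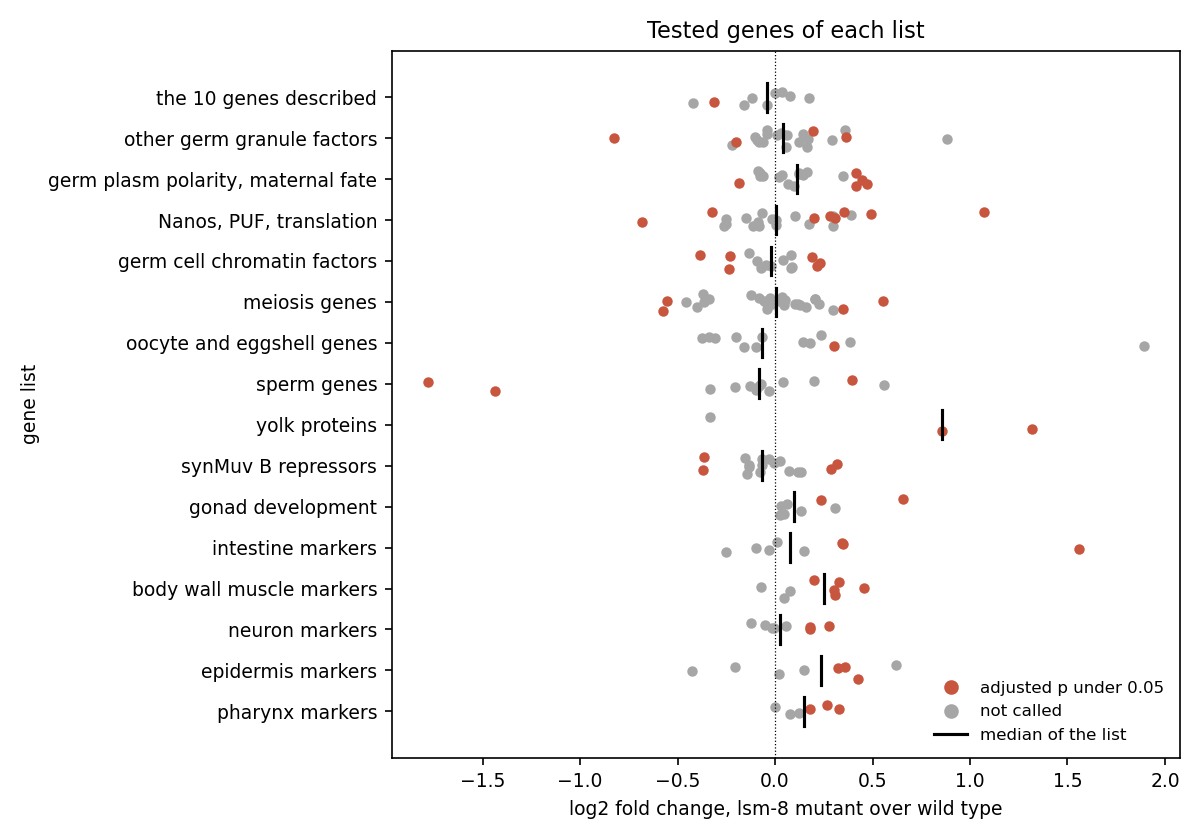
Log2 fold change of each tested gene in the 10 described genes and in 15 other lists, red where the adjusted p was under 0.05, with a black bar at each list's median. The 9 tested genes of the top row spread from -0.42 to 0.17. In the sperm and germ granule lists spe-4 (-1.78) and meg-3 (-0.83) lie lowest.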

How the data were processed

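Per the labels, RNA was extracted from sorted L1 larvae and made into stranded total RNA libraries, read as single ends. The deposited counts are whole-number reads per gene, and the authors give a width in bases for each. The submitters' processing notes name Bowtie, edgeR 3.24.0 and ce10 without roles; the sources used here do not state counter, annotation or strand setting. The deposited log2 values equal log2 of the count scaled to the mean library total plus 8.

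Counts were tested with edgeR 4.0.16 (quasi-likelihood F-test, robust, TMM, filterByExpr) in R 4.3.3, with Benjamini-Hochberg adjustment over all 16771 genes tested, and calls made at 0.05. Alternatives used DESeq2 1.42.0 and limma 3.58.1. The test was checked on simulated counts. SEs come from the F statistic. Names and chromosomes were matched by identifier to WBcel235 tables. Exon overlaps were found from the coordinates of that annotation, which are not given here. Of 241 list genes, 235 were found. Members and lists were chosen with earlier results of these data known. Named genes are the members, lsm-8 and, per list, the 2 largest called rises and falls with a mean of at least 0.5 CPM, and others are marked in the text.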

Additional observations from a re-analysis of the deposited data

How the results depend on the processing

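The count of described genes called lower was 1 as reported. It was 0 with library totals only, DESeq2, the replicate number as a block and limma on the deposited log2 values, and 2 with the gene length correction, where pgl-1 joined pgl-3. Leaving out 1 library gave 0 to 1 lower and 0 to 1 higher, the higher call being glh-4. The replicate number is not stated to pair libraries, and same-numbered libraries did not deviate together (correlation of deviations across genes -0.06). With it as a block, 3655 genes were called against 4737. No value of a named gene reversed with a call on either side. Of the 41 genes named from lists, 23 were called in every alternative that tested them and 18 lost the call in at least 1. Counts per list are small, and 64 of 390 moved by over 1.5 times, for example 6 to between 3 and 7 rises among translational regulators and 2 to between 1 and 4 among other germ granule factors. The test of genes of at least 5 CPM in 2 libraries leaves out glh-2, glh-3, meg-1 and nos-2 by its construction. Depth limits nos-2 and meg-1, where at most 22 counts were seen in a library.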
